A study of Mus musculus with 11 samples.

Results

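Oxidative phosphorylation is carried out by protein complexes of the inner mitochondrial membrane, and the genes described here encode their nuclear-encoded subunits and cytochrome c. Members were chosen by a rule on symbols alone, but the choice was made with earlier results of these data known. The symbols were Ndufa, Ndufb, Ndufc, Ndufs or Ndufv followed by a digit, Uqcr, Cox4 to Cox8, Atp5, and Sdha, Sdhb, Sdhc, Sdhd, Cyc1 and Cycs. The rule found 83 of the 18193 genes that had a probe set with a single gene symbol. Complex I contributed 35 members, complex II 4, complex III 9, complex IV 17, complex V 17 and cytochrome c 1. Subunits encoded by mitochondrial DNA carry other symbols and lie outside the rule. Of the 83 members, 80 passed the filter described below. Of all 18193 genes 14795 did, so passing it says little about the label. The 3 that did not were Ndufa4l2, Cox7b2 and Cox8b, which are isoforms of other tissues or conditions. Ndufb4 passed with 4 of the 11 arrays above the filter level and a mean below it. Other probe sets of Ndufb4 carry several gene symbols and were left out, so this level is that of the probe set that remained.

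RNA came from CD8+ effector T cells of pmel-1 transgenic mice, whose T cell receptor recognises the melanocyte protein gp100, and was hybridised to 11 Affymetrix arrays in 3 experiments. Enriched naive (CD44-) or central memory (CD44+) cells were activated on plate-bound CD3 and CD28 antibodies, restimulated with peptide-pulsed allogeneic feeder cells and grown for 2 weeks in 10 cetus units of interleukin 2, and this culture was common to all groups. The groups were naive-derived stimulated cells (3 arrays), naive-derived unstimulated cells (2 arrays), memory-derived stimulated cells (3 arrays) and memory-derived unstimulated cells (3 arrays), where stimulated cells received a final 4 h through CD3 and CD28. The sources used here give no sex or age of the mice, no number of mice per experiment and no statement on feeder cells left at harvest.

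Electrons from NADH enter the respiratory chain at complex I and electrons from succinate at complex II. They pass through coenzyme Q, complex III, cytochrome c and complex IV to oxygen, and the proton gradient built on the way drives ATP synthesis by complex V. Activated effector T cells raise glycolysis alongside respiration, whereas memory T cells are known for a large respiratory reserve.

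The promoters of many of these genes are bound by nuclear respiratory factor 1 (NRF1), factors of the ETS family such as GABP, and YY1. A window from 250 bases before to 50 bases after the transcription start, from RefSeq (GRCm38.p6), was at hand for 67 members and for 27025 genes in all. The NRF1 motif, given here by name, has its matches in capitals in the sequences below. On either strand, its letters stood in the windows of 14 members (20.9%, against 4.78% of all windows). The ETS letters CCGGAAG stood in 16 member windows (23.9%, against 9.12%), and the YY1 letters AANATGGCG in 7 (10.4%, against 2.51%). The members Sdha, Atp5g2, Atp5h and Ndufa8, all lower after stimulation of memory-derived cells in the results below, held the NRF1 letters within the 250 bases before their start. Their promoters are printed 5′ to 3′ as the gene reads, with the NRF1 letters in capitals.
Sdha (chr13:74350241-74350490, minus strand): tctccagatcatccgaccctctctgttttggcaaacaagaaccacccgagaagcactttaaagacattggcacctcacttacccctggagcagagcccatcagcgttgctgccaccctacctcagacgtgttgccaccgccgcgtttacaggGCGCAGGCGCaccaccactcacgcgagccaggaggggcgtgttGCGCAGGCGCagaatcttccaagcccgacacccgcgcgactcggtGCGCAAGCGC
Atp5g2 (chr15:102671048-102671297, minus strand): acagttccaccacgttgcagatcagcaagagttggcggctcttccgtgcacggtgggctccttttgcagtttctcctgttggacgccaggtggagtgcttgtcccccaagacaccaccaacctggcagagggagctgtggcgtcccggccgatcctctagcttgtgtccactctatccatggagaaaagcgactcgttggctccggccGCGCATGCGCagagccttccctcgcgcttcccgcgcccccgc
Atp5h (chr11:115419920-115420169, minus strand): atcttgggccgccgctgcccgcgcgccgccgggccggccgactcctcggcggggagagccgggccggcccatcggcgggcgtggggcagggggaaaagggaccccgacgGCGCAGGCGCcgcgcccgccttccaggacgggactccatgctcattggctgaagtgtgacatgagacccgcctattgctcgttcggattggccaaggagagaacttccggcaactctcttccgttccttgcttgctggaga
Ndufa8 (chr2:36049339-36049588, minus strand): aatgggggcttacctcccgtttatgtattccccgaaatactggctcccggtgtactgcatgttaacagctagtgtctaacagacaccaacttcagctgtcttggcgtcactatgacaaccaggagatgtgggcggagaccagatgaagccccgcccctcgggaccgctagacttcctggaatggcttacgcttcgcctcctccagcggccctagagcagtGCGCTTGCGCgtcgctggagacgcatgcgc
The matches in Sdha began 98, 55 and 10 bases before the start, and the single matches in Atp5g2, Atp5h and Ndufa8 began 42, 141 and 30 bases before it. Holding these letters is a description of the sequence and does not show binding.

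The deposited values were on a log10 scale, inferred here from the values, and are given below on the log2 scale. The submitters had quantile normalized the arrays, so all arrays held the same set of values and array brightness carries no information. Each gene took the values of its brightest probe set on average, and it was tested if at least 2 arrays had it above their 40th percentile, a level of 1.54 on the log2 scale. This left 14795 genes, and a gene was called at a limma adjusted p below 0.05 (Benjamini-Hochberg over all genes tested). Levels of different genes are not compared, because probe sets differ in their response.

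The memory-derived unstimulated arrays stood apart from the other 8. On the first principal component of all genes tested, which held 56.5% of the variance, they lay at 50.4, 40.3 and 77.4, against -37.45 to -11.61 on the other arrays. The naive-derived unstimulated arrays, at -16.16 and -16.7, lay among the stimulated arrays. RNA quality moved with the groups as well. The 3′ minus 5′ difference of actin (log2) was 1.93 to 2.60 on naive-derived stimulated, 1.54 to 1.59 on naive-derived unstimulated, 1.43 to 1.73 on memory-derived stimulated and 0.875 to 1.17 on memory-derived unstimulated arrays. It did not overlap between the stimulated and unstimulated arrays of either origin, nor between the origins within either state, and its part in the results was not tested. That of Gapdh overlapped in part. All 7 measured CD8 T cell markers lay above the filter level on all arrays, and of 23 measured markers of other blood cells 6 did, 10 lay above it on some arrays and 7 on none. The 6 were Csf1r, Adgre1 and Cd68 of macrophages and monocytes, Itgax and Zbtb46 of dendritic cells and Zbtb7b of CD4 T cells, and the 7 included Cd4, Ms4a1, Cd79a, S100a8 and S100a9.

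The first comparison asked how the final stimulation changed these genes in memory-derived effectors. Members were mostly lower after stimulation. Of 80 tested, 30 fell (37.5%, against 17.3% of all genes tested), 3 rose (3.75%, against 14.3%) and 47 were not called. Before adjustment, 39 members had a p below 0.05 (41.0% of all genes tested did). The median difference, stimulated minus unstimulated, was -0.23 on the log2 scale, against 0.0025 over all genes, and 64 of the 80 differences were below 0. In 49 members every stimulated array lay below every unstimulated array (24.7% of all genes tested did so), and in 7 every stimulated array lay above (21.9%). The falls were moderate, none reaching 1 on the log2 scale, with Sdha at -0.85 the largest. The map of deviations by array shows the members as rows, with the memory-derived unstimulated columns standing out.

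**Figure D1:**
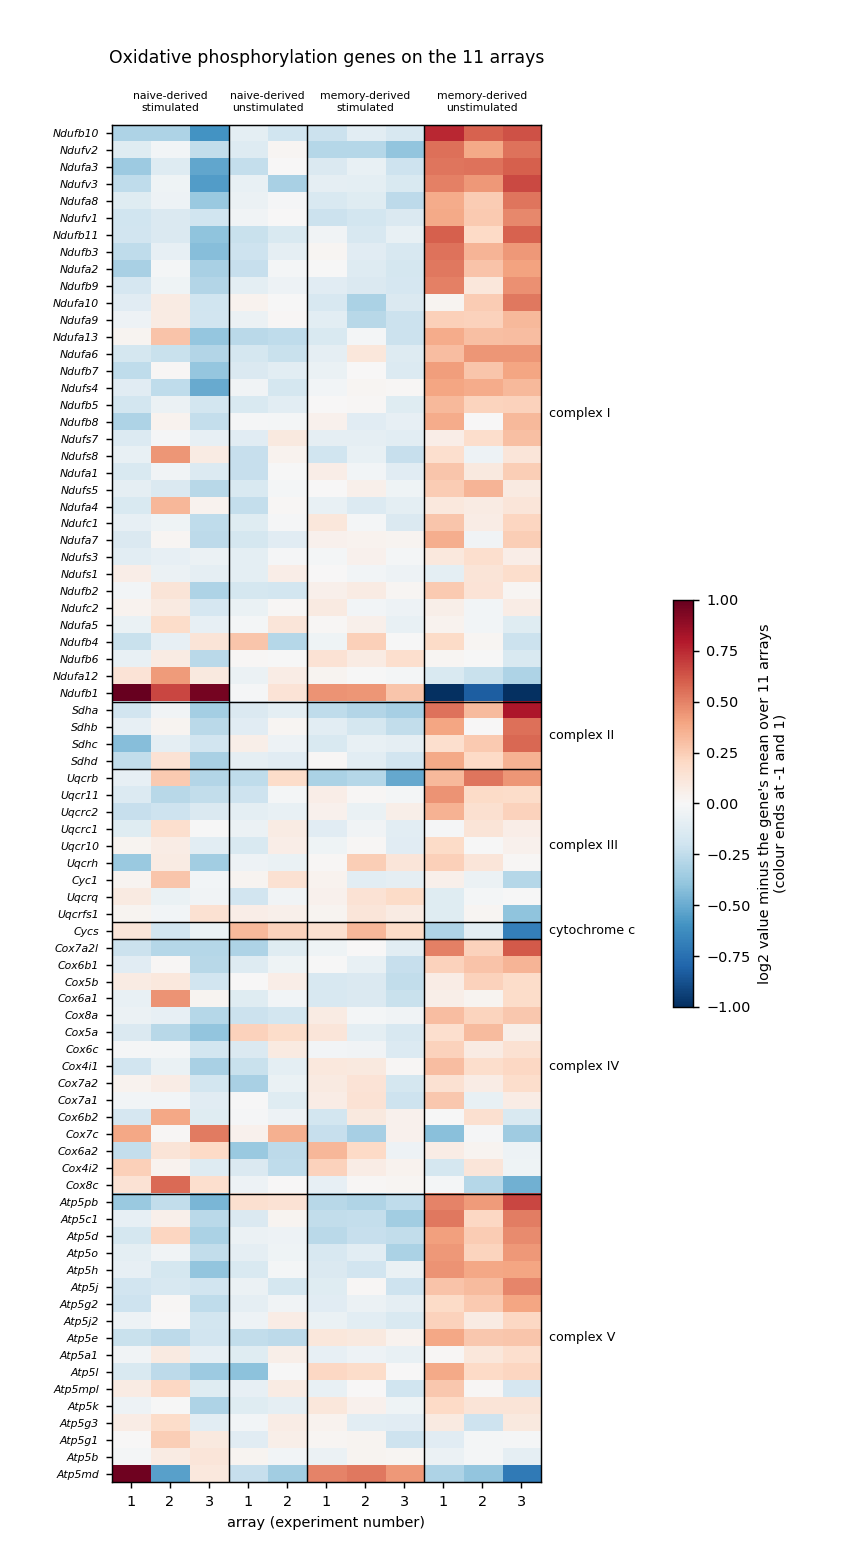
Log2 value minus the gene's mean over the 11 arrays for the 80 members that passed the filter (rows, grouped by complex) on each array (columns, numbered by experiment within each group). Red is above the gene's mean and blue below it. The memory-derived unstimulated columns are red for most rows, and Ndufb1, Cycs and Atp5md are blue there.

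Complex I takes electrons from NADH and passes them to coenzyme Q. Of its 34 tested members, 16 fell and 1 rose (median -0.29). All 3 subunits of the flavoprotein series fell: Ndufv1, which binds NADH and flavin, Ndufv2, which holds an iron-sulphur cluster beside it, and Ndufv3, an accessory subunit of the same module. Ndufv2 was at 7.17, 7.17 and 7.06 on the stimulated arrays of experiments 1, 2 and 3, against 8.002, 7.83 and 7.99 on the unstimulated arrays. The groups lay far apart relative to their spread, and Ndufv2 fell by 0.81 log2 units (SE 0.116, adjusted p = 0.000656). Its other probe sets ran the same way, at -0.66 and -0.60. Ndufv1 fell by 0.56 (SE 0.107, adjusted p = 0.00307) and Ndufv3 by 0.65 (SE 0.148, adjusted p = 0.00718).

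Ndufb10, an accessory subunit of the membrane arm, was at 6.37, 6.48 and 6.42 on the stimulated arrays, against 7.34, 7.17 and 7.22 on the unstimulated arrays. It fell by 0.82 log2 units (SE 0.121, adjusted p = 0.000768), and the arrays of the 2 groups did not overlap. Among the accessory subunits, 7 of 12 tested Ndufa members fell, led by Ndufa3 at -0.70, and 5 of 11 Ndufb members fell. Ndufa8, whose promoter is printed above, fell by 0.57 (SE 0.128, adjusted p = 0.00689). In the iron-sulphur series, 1 of 6 tested Ndufs members fell, the accessory subunit Ndufs4 at -0.36 (adjusted p = 0.0456), and 2 other probe sets of Ndufs4 ran the other way at 0.12 and 0.20. Ndufs1, the large iron-sulphur subunit, differed by -0.09 (SE 0.119) and Ndufs3, a core subunit of the coenzyme Q module, by -0.11 (SE 0.103), and neither was called. Ndufb8, a membrane arm subunit often used to mark assembled complex I, differed by -0.28 (adjusted p = 0.16), and Ndufa4, since reassigned to complex IV, by -0.21 (adjusted p = 0.294). Neither Ndufc member was called. These series follow gene names and textbook structure and were drawn up after the values had been seen.

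Ndufb1, a small membrane arm subunit, ran against the rest of its complex. It was at 5.54, 5.53 and 5.36 on the stimulated arrays, against 3.91, 4.26 and 3.16 on the unstimulated arrays. All stimulated arrays lay above all unstimulated ones, and it rose by 1.70 log2 units (SE 0.233, adjusted p = 0.000532). It was measured by a single probe set, so no other probe set stands beside this value.

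Complex II, succinate dehydrogenase, works both in the citrate cycle and in the respiratory chain. Sdha, its flavin-bearing catalytic subunit, was at 6.47, 6.44 and 6.39 on the stimulated arrays, against 7.27, 7.04 and 7.54 on the unstimulated arrays. It fell by 0.85 log2 units (SE 0.143, adjusted p = 0.00146), with no overlap between the groups, and 2 other probe sets above the filter level gave -1.01 and -0.16. Sdhb, the iron-sulphur subunit, fell by 0.49 (SE 0.154, adjusted p = 0.0321), and with the experiment as a replicate block the adjusted p was 0.0547. The membrane anchor Sdhc fell by 0.44 (SE 0.14, adjusted p = 0.034), and the other anchor, Sdhd, differed by -0.40 (adjusted p = 0.0501). The calls of Sdhb and Sdhc were lost under 8 and 7 of the 20 alternatives tried, among them leaving out any one memory-derived stimulated array. Without memory-derived unstimulated array 3, Sdhb differed by -0.34 and Sdhc by -0.285.

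Complex III hands electrons from coenzyme Q to cytochrome c. Only Uqcrb, a small subunit that binds ubiquinone, fell among its 9 members (median -0.13). It was at 10.01, 10.04 and 9.82 on the stimulated arrays, against 10.65, 10.86 and 10.76 on the unstimulated arrays, and fell by 0.80 log2 units (SE 0.168, adjusted p = 0.00456). Its probe sets disagreed in size: the other one, also above the filter level on all arrays, differed by -0.06. Of the core and redox subunits none was called, with Uqcrc1 at -0.15, Uqcrc2 at -0.23, cytochrome c1 (Cyc1) at 0.04 and the Rieske protein Uqcrfs1 at 0.24. Cycs, the mobile carrier cytochrome c, which also triggers caspases once released from mitochondria, was at 10.83, 11.005 and 10.86 on the stimulated arrays, against 10.36, 10.57 and 9.99 on the unstimulated arrays. It rose by 0.59 log2 units (SE 0.157, adjusted p = 0.0147), and its other probe sets above the filter level ran the same way at 0.27 and 0.38. Among the alternatives, its call was lost without memory-derived stimulated array 2 and with experiments 1 and 2 alone.

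Complex IV, cytochrome c oxidase, reduces oxygen to water. Of its 15 tested members 3 fell and none rose (median -0.16). The share of falls was near the 17.3% of all genes tested that fell, and 14.3% of all genes rose. Cox7a2l, which helps to join complexes III and IV into supercomplexes, was at 7.67, 7.72 and 7.61 on the stimulated arrays, against 8.22, 7.95 and 8.33 on the unstimulated arrays. It fell by 0.50 (SE 0.127, adjusted p = 0.0123), the groups did not overlap, and 2 other probe sets gave -0.40 and -0.49. Cox6b1, which lies on the outer face of the enzyme, fell by 0.39 (SE 0.121, adjusted p = 0.032). Cox5b, a subunit on the matrix side, fell by 0.35 (adjusted p = 0.0479), but the call was lost under 14 of the 20 alternatives, with an adjusted p of 0.0569 with the replicate block. The subunits Cox4i1, Cox5a, Cox6a1, Cox7a2 and Cox8a differed by -0.16, -0.23, -0.26, -0.12 and -0.26 and were not called. Of the isoforms that other tissues use, 5 were tested. Cox4i2, of lung, lay between 1.63 and 2.12 over all 11 arrays, Cox6a2 and Cox7a1, of heart and muscle, between 2.19 and 2.90 and between 2.08 and 2.56, and Cox8c, of testis, between 2.88 and 3.93. None of the 5 was called.

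Complex V, the ATP synthase, couples proton flow to ATP formation. Of its 17 tested members 7 fell and 1 rose (median -0.23). All 4 genes of the peripheral stalk, which holds the catalytic head still against the turning rotor, fell: Atp5pb, Atp5h, Atp5j and Atp5o. Atp5pb was at 9.37, 9.35 and 9.39 on the stimulated arrays, against 10.14, 10.07 and 10.31 on the unstimulated arrays. The stimulated arrays lay close together and clear of the others, and Atp5pb fell by 0.81 log2 units (SE 0.114, adjusted p = 0.000622), with its second probe set at -0.36. Atp5h, whose promoter is printed above, fell by 0.54 (SE 0.119), Atp5j by 0.47 (SE 0.115) and Atp5o by 0.56 (SE 0.121), with adjusted p values of 0.00569, 0.0102 and 0.00541. The second probe set of Atp5h gave -0.77. That of Atp5o, also above the filter level on all arrays, differed by only -0.09, so its fall rests on 1 of 2 probe sets.

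The catalytic head was uneven. The central stalk subunits Atp5c1 and Atp5d fell by 0.69 (SE 0.135, adjusted p = 0.00319) and 0.63 (SE 0.143, adjusted p = 0.00718). Their second probe sets, above the filter level on all arrays, gave only -0.21 and -0.26. Atp5e, also of the central stalk, differed by -0.23 (adjusted p = 0.122) and was not called. The alpha and beta subunits Atp5a1 and Atp5b, which form the catalytic sites, differed by -0.16 (SE 0.112) and 0.05 (SE 0.104) and were not called. Of the 3 genes that encode the same proton-carrying c-ring protein, Atp5g2 fell by 0.37 (SE 0.117, adjusted p = 0.0342), a call lost under 9 of the 20 alternatives, and Atp5g1 and Atp5g3 differed by -0.0044 and -0.05. Atp5md, a small membrane subunit, was at 7.98, 8.01 and 7.92 on the stimulated arrays, against 7.17, 7.08 and 6.78 on the unstimulated arrays. It rose by 0.96 log2 units (SE 0.295, adjusted p = 0.03), and the groups did not overlap. Its fitted error was set by naive-derived stimulated arrays at 8.46, 6.94 and 7.58, and the call was lost without any one of 5 memory-derived arrays.

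**Figure D2:**
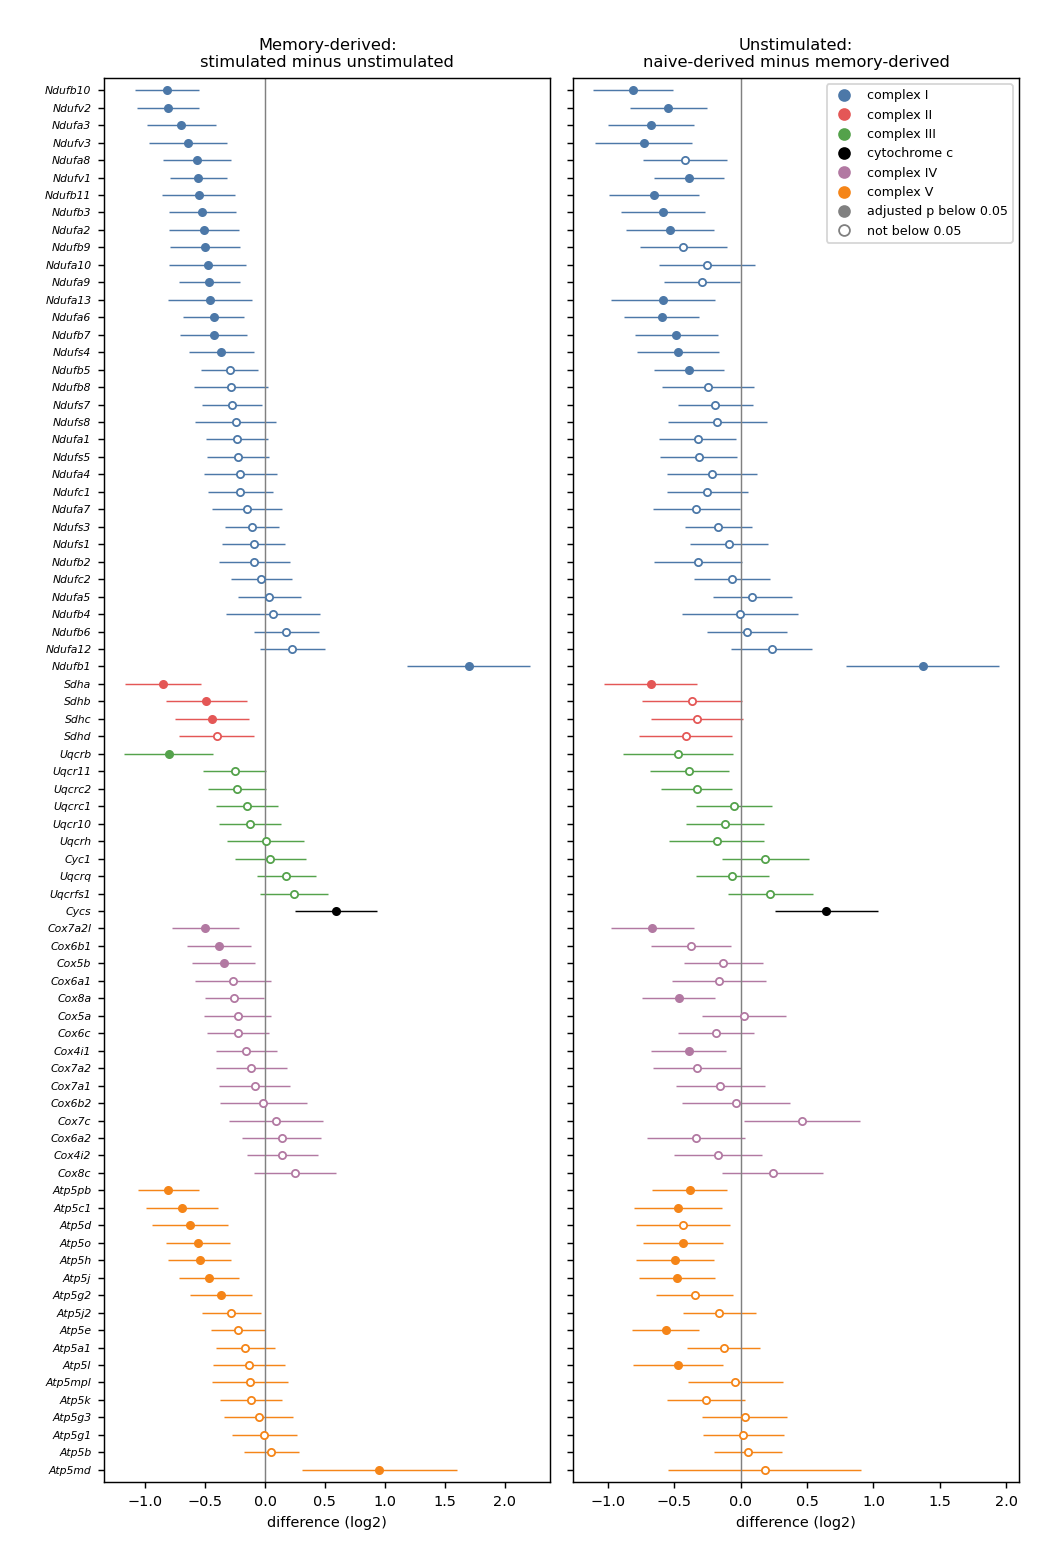
Log2 difference of each of the 80 members (points, coloured by complex, with the 95% interval from limma as a line), stimulated minus unstimulated in memory-derived cells on the left and naive-derived minus memory-derived in unstimulated cells on the right; filled points have an adjusted p below 0.05. Most points lie left of 0 in both panels, with Ndufb1 at 1.70 and 1.37 far to the right; both panels use the same memory-derived unstimulated arrays.

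The count of falls depended on single arrays and on scaling. It was 19 without memory-derived stimulated array 3 and 21 without memory-derived unstimulated array 3, the array farthest out on the first component, and it was 12 when arrays were scaled to the hybridization controls and 12 with experiments 1 and 2 alone. The calls of Ndufb10, Ndufv1, Ndufv2, Ndufv3, Sdha, Uqcrb, Atp5c1, Atp5h and Atp5pb, and the rise of Ndufb1, held in each alternative that tested them. Actin differed between these groups as given above. The summed log2 level of the 7 CD8 T cell markers was 54.6 to 54.9 on the stimulated arrays, against 57.2 to 57.5. These 7 did not all move together: Cd3e, Cd3d, Cd3g, Cd8a and Cd8b1 were lower after stimulation without overlap, and Cd2 overlapped. Cd5 was higher, at 6.12, 5.86 and 5.90 on the stimulated arrays, against 5.65, 5.07 and 5.28. The sum of 3 measured neutrophil markers was 2.34 to 2.51, against 3.06 to 3.53. Of these, S100a8 and S100a9 lay below the filter level on all arrays. The sums of the other marker lists overlapped, but some single markers in them did not. Cd68 (4.91, 4.87 and 4.54, against 5.37, 5.23 and 5.12), Itgax (5.72, 5.41 and 5.62, against 6.17, 5.99 and 6.65) and Cd79b were lower after stimulation. Csf1r (2.73, 2.83 and 2.76, against 2.69, 2.38 and 2.30) and Zbtb46 were higher. The part of these in the falls was not tested, and in bulk RNA fewer cells of a type and less RNA per cell cannot be told apart.

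Most members were brightly measured. Among the 2018 genes with a mean above 6 on the log2 scale, a level chosen after the data had been seen, 71 were members. Of these 38 fell (53.5%, against 30.0% of the genes at that level) and 2 rose (2.82%, against 33.9%). Atp5e, Atp5j2, Cox8a, Ndufb5, Ndufs7, Sdhd, Uqcr11 and Uqcrc2 were called at that level and not over all genes.

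The second comparison asked how effectors of naive origin differed from those of memory origin when neither had been restimulated. It uses the same memory-derived unstimulated arrays as the first, so the calls of both comparisons rest in part on the same values. Naive-derived cells had lower levels of 24 members (30.0%, against 14.9% of all genes tested), higher levels of 2 (2.5%, against 10.9%), and 54 were not called. The median difference, naive-derived minus memory-derived, was -0.32 on the log2 scale, against -0.009 over all genes. In 50 members both naive-derived arrays lay below all 3 memory-derived arrays (29.0% of all genes tested did so), and in 5 they lay above (24.4%). The naive-derived group has 2 arrays, and the count of lower members was 4 without its array 1, 6 without its array 2, and 12 without memory-derived unstimulated array 1. It was 8 when arrays were scaled to the hybridization controls and 14 with experiments 1 and 2 alone.

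In complex I, 13 of 34 members were lower and 1 higher. Ndufb10 was at 6.48 and 6.38 on the naive-derived arrays of experiments 1 and 2, against 7.34, 7.17 and 7.22 on the memory-derived arrays, and was lower (difference -0.81, SE 0.136, adjusted p = 0.00202). Ndufv3 was at 6.70 and 6.45 on the naive-derived arrays, against 7.27, 7.21 and 7.43, and was lower (difference -0.73, SE 0.165, adjusted p = 0.00859), a call lost without naive-derived array 2. The other NADH-module subunits Ndufv1 and Ndufv2 were also lower, at -0.39 (adjusted p = 0.0351) and -0.54 (adjusted p = 0.0115). Ndufb1 was again the exception, at 5.07 and 5.22 on the naive-derived arrays, against 3.91, 4.26 and 3.16 on the memory-derived arrays (difference 1.37, SE 0.26, adjusted p = 0.00383). For Ndufb10 and Ndufb1 both naive-derived arrays lay clear of all memory-derived ones, and both calls held in each alternative that tested them.

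Sdha was the only complex II member called, at -0.68 (SE 0.16, adjusted p = 0.0105), and the call was lost without either naive-derived array. It was at 6.58 and 6.63 on the naive-derived arrays, against 7.27, 7.04 and 7.54. None of the 9 complex III members was called, with Uqcrb at -0.47 (adjusted p = 0.0928, and 0.0427 with the replicate block). Cytochrome c (Cycs) was higher in naive-derived cells, at 10.99 and 10.90, against 10.36, 10.57 and 9.99 on the memory-derived arrays (difference 0.64, SE 0.176, adjusted p = 0.0209). With the experiment as a replicate block the adjusted p of Cycs was 0.0503, and the call was also lost without either naive-derived array.

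In complex IV, Cox7a2l, Cox8a and Cox4i1 were lower, of 15 members tested, where 14.9% of all genes tested were lower. Cox7a2l, the supercomplex factor, was at 7.41 and 7.60 on the naive-derived arrays, against 8.22, 7.95 and 8.33 (difference -0.66, SE 0.142, adjusted p = 0.00688), a call lost without naive-derived array 1. Cox8a, a small membrane-spanning subunit, differed by -0.47 (SE 0.124, adjusted p = 0.0188) and Cox4i1, a subunit through which ATP inhibits the enzyme, by -0.39 (adjusted p = 0.046). The Cox4i1 call was lost under 13 of the 20 alternatives, with an adjusted p of 0.0546 with the replicate block. In complex V, 7 of 17 members were lower, among them the 4 peripheral stalk genes, at -0.38 to -0.50. The second probe sets of Atp5o, Atp5pb and Atp5h gave -0.08, -0.19 and -0.78. Atp5e, the smallest subunit of the central stalk, was at 7.80 and 7.79 on the naive-derived arrays, against 8.43, 8.32 and 8.33 (difference -0.56, SE 0.115, adjusted p = 0.00551). Its arrays lay close within each group, and this call held in each alternative. The catalytic subunits Atp5a1 and Atp5b differed by -0.13 and 0.05 and were not called, and with the replicate block the adjusted p values of Atp5c1, Atp5o, Atp5pb and Ndufv1 were 0.0661, 0.0539, 0.098 and 0.077.

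Summed levels of several marker lists differed by origin, but markers within a list did not all move together. The summed log2 level of 6 measured macrophage and monocyte markers was 12.95 to 13.08 on the naive-derived unstimulated arrays, against 14.3 to 16.4 on the memory-derived unstimulated arrays, with 3 of the 6 above the filter level on all arrays. In this list Cd68 (3.82 and 3.32, against 5.37, 5.23 and 5.12) and Cd14 were lower on the naive-derived arrays. Csf1r (2.80 and 2.79, against 2.69, 2.38 and 2.30) and Lyz2 were higher there, and Itgam and Adgre1 overlapped. The sum of 4 measured dendritic cell markers was 10.2 to 11.5, against 12.04 to 12.53, with 2 of the 4 above the filter level on all arrays. Of these markers only Itgax separated the groups, at 4.80 and 4.20, against 6.17, 5.99 and 6.65. That of 4 measured B cell markers was 6.52 to 6.68, against 5.19 to 6.17, with Ms4a1 and Cd79a above the filter level on no array, Cd79b on 6 and Pax5 on 9. The CD8 T cell sum was 58.08 to 58.23, against 57.2 to 57.5, that of 3 CD4 and regulatory T cell markers 5.38 to 5.50, against 5.69 to 5.71, and the NK cell marker Ncr1 was at 1.13 to 1.24, against 1.42 to 1.61. Cd4 lay above the filter level on no array, Foxp3 on 4 and Ncr1 on 2. The neutrophil and erythroid sums overlapped. The part of these markers, and of actin, in the origin results was not tested. Among genes with a mean above 6 on the log2 scale, 37 of 71 members were lower (52.1%, against 26.8% of genes at that level) and 1 was higher (1.41%, against 30.8%).

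**Figure D3:**
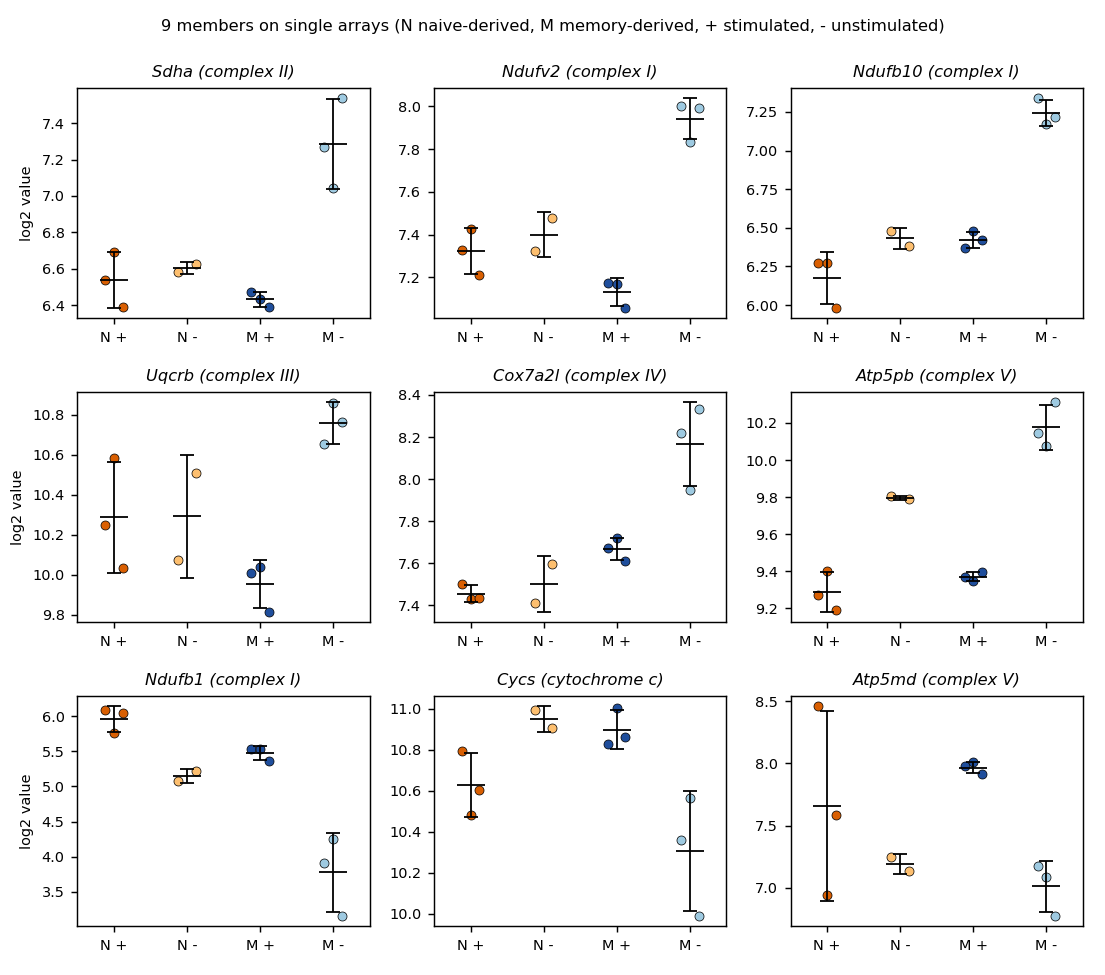
Log2 values of 9 members on single arrays (points) in naive-derived stimulated (N +), naive-derived unstimulated (N -), memory-derived stimulated (M +) and memory-derived unstimulated (M -) cells, with the mean and SD of each group as bars (n = 3, 2, 3 and 3); each panel has its own axis, which does not start at 0. The memory-derived unstimulated arrays are above all others for Sdha, Ndufv2, Ndufb10, Uqcrb, Cox7a2l and Atp5pb, and below all others for Ndufb1.

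Both comparisons share the memory-derived unstimulated arrays, and these arrays were the extreme ones for many members. In 39 of 80 members (48.8%, against 18.1% of all genes tested) all 3 lay above the other 8 arrays, and in 2 members, Ndufa12 and Ndufb1, all 3 lay below (2.5%, against 14.0%). Over the members, the median deviation from the gene's mean was -0.11, -0.01 and -0.19 on the naive-derived stimulated arrays and -0.11 and -0.02 on the naive-derived unstimulated arrays. It was -0.03, -0.03 and -0.11 on the memory-derived stimulated arrays, against 0.25, 0.16 and 0.21 on the memory-derived unstimulated arrays. The median over all genes tested lay between -0.03 and 0.04 on every array.

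**Figure D4:**
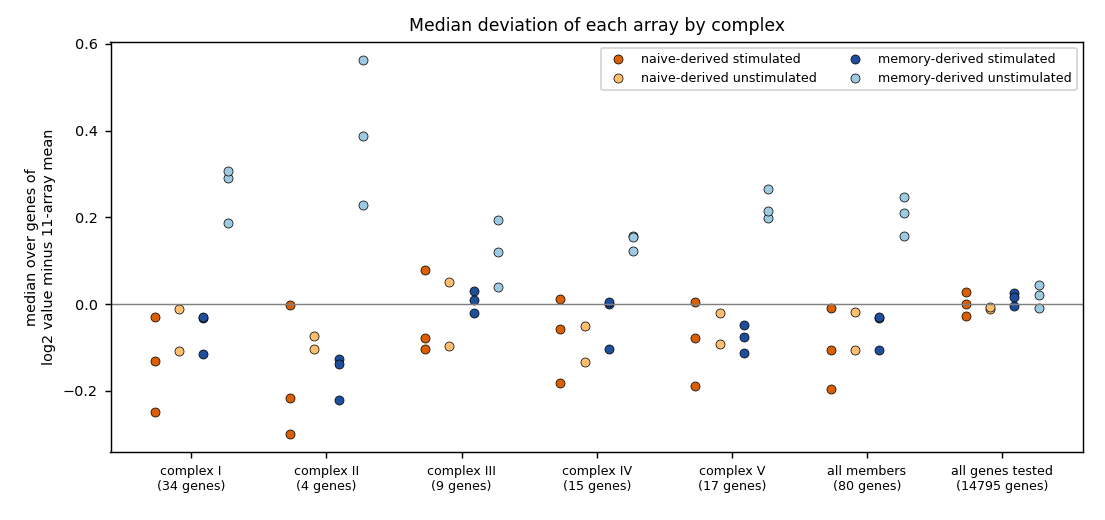
Median over genes of the log2 value minus the gene's mean over 11 arrays, for each array (points, coloured by group), by complex, over the 80 members and over the 14795 genes tested. For complexes I, II, IV and V the memory-derived unstimulated arrays lie above all others, whereas for complex III they overlap the naive-derived arrays.

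The third comparison asked how the final stimulation changed naive-derived effectors. No member was called by limma, and over all genes 2 were (0.0135%). At an unadjusted p below 0.05 there were 3 members of 80 (8.46% of all genes tested), and the median difference was -0.04. The largest fall was that of Atp5pb, at 9.27, 9.40 and 9.19 on the naive-derived stimulated arrays, against 9.80 and 9.79 on the naive-derived unstimulated arrays (difference -0.51, SE 0.128, adjusted p = 0.295). Its groups did not overlap, which also held for members such as Ndufv1, Sdhc and, in the other direction, Ndufa12. The share of all genes without overlap is not given here for this comparison. Cox5a, a subunit on the matrix side of complex IV, was at 10.39, 10.26 and 10.14, against 10.76 and 10.71 (difference -0.48, SE 0.143, adjusted p = 0.392), also without overlap. Ndufb1 was at 6.09, 5.76 and 6.04, against 5.07 and 5.22 (difference 0.81, SE 0.26, adjusted p = 0.444). Sdha, Ndufv2 and Ndufb10, which fell in memory-derived cells, differed by -0.07, -0.08 and -0.26 and their adjusted p values were 0.95, 0.921 and 0.648. With 2 unstimulated arrays the 95% interval for Sdha ran from -0.42 to 0.28.

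The test of whether the response itself differed between origins gave a positive difference, naive-derived response minus memory-derived response, for 68 of 80 members (median 0.20, against 0.02 over all genes). No member passed, against 2.71% of all genes tested, and 19 of 80 had an unadjusted p below 0.05, against 23.3% of all genes. Nearest were Ndufv2 at 0.73 (SE 0.174, adjusted p = 0.0529), Cycs at -0.91 (SE 0.236, adjusted p = 0.0613), Sdha at 0.78 (SE 0.214, adjusted p = 0.0704), Atp5c1 at 0.65 (SE 0.203, adjusted p = 0.0959) and Uqcrb at 0.80 (SE 0.252, adjusted p = 0.098), and Ndufb10 was at 0.56 (adjusted p = 0.105). Among genes with a mean above 6 on the log2 scale, 10 members passed with a positive difference (14.1%, against 11.7% of genes at that level) and 1, Cycs, with a negative one (1.41%, against 13.5%). The 10 were Ndufa9, Ndufa13, Ndufb10, Ndufv1, Ndufv2, Sdha, Uqcrb, Atp5c1, Atp5d and Atp5o. For Uqcrb and Atp5o the second probe set, above the filter level on all arrays, gave a response difference of the opposite sign. That of Uqcrb changed by -0.26 in naive-derived and -0.06 in memory-derived cells, and that of Atp5o by -0.30 and -0.09.

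The last comparison set naive-derived against memory-derived effectors after the final stimulation. No member was called by limma (3.7% of all genes tested were), 6 of 80 had an unadjusted p below 0.05 (16.3% of all genes), and the median difference was -0.05. Atp5l, a membrane subunit of the ATP synthase dimer, was at 8.10, 7.99 and 7.89 on the naive-derived stimulated arrays, against 8.45, 8.43 and 8.25 on the memory-derived stimulated arrays (difference -0.39, SE 0.137, adjusted p = 0.18). Atp5e was at 7.83, 7.79 and 7.86, against 8.17, 8.15 and 8.09 (difference -0.31, SE 0.103, adjusted p = 0.155). For both genes the arrays of the 2 groups did not overlap. This was not particular to them: it also held for Ndufb10 and Cycs and, in the other direction, for Ndufb1. The share of all genes without overlap is not given here for this comparison. At this number of arrays the interval for Sdha ran from -0.21 to 0.42.

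**Figure D5:**
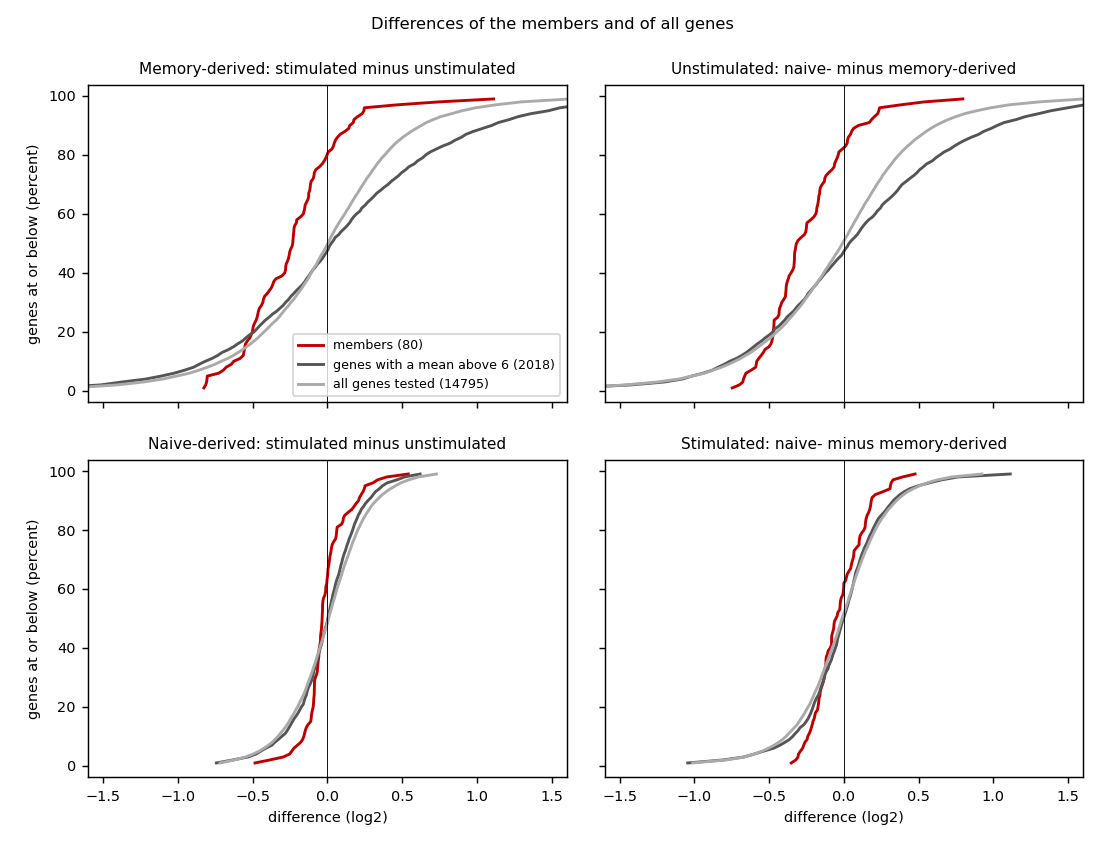
Percent of genes (vertical axis) whose log2 difference lies at or below the value on the horizontal axis, for the 80 members, the 2018 genes with a mean above 6 and the 14795 genes tested, in the 4 comparisons. The members' curve lies left of the others over most of its length in the upper panels, with medians of -0.23 and -0.32, and close to them in the lower panels, with medians of -0.04 and -0.05.

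Neighbouring mitochondrial processes did not all move as the subunits did in stimulated memory-derived cells. Over all genes tested, 14.3% rose and 17.3% fell in this comparison, and several of the lists below lie near those shares. Of 26 tested genes of protein import and folding, 16 rose and none fell (median 0.51), among them Chchd4, the oxidoreductase of the intermembrane space, at 1.53 (SE 0.382, adjusted p = 0.0111) and the matrix chaperone gene Hspa9 at 1.42 (SE 0.193, adjusted p = 0.000514). Of 17 genes of mitochondrial DNA upkeep and transcription, 7 rose and 1 fell, led by the topoisomerase gene Top1mt at 1.15. Of 43 assembly factors, 14 rose and 11 fell: Cox11, which brings copper to complex IV, rose by 1.17 (adjusted p = 0.000517), and Surf1, another complex IV assembly factor, fell by 1.07 (adjusted p = 0.000599). Of 12 biogenesis regulators, 4 rose and 2 fell, with the GABP subunit gene Gabpb1 at 1.18 (adjusted p = 0.00187) and the transcription factor gene Myc at 1.35 (adjusted p = 0.0332). Without memory-derived unstimulated array 3, Chchd4 was at 0.94 and Myc at 0.71, both still called, 15 import genes rose and none fell, and 8 assembly factors rose and 10 fell.

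Of 15 citrate cycle genes, 1 rose and 4 fell, led by Suclg1, a subunit of succinyl-CoA ligase, at -0.79 (adjusted p = 0.000913). Of 17 genes of coenzyme Q and haem synthesis, 4 rose and 3 fell, and Hccs, which attaches haem to cytochrome c, rose by 1.53 (SE 0.194, adjusted p = 0.000346). Of 13 carriers and uncoupling proteins, 2 rose and 5 fell, with Slc25a33, a pyrimidine nucleotide carrier, at 2.07 (adjusted p = 0.00246) and Slc25a12, an aspartate and glutamate carrier, at -1.05 (adjusted p = 0.00208). Without memory-derived unstimulated array 3, 2 citrate cycle genes and 3 carriers fell. Against memory-derived unstimulated cells, naive-derived unstimulated cells had higher levels of 13 of the 26 import genes and lower levels of none, again on the shared memory-derived arrays (10.9% and 14.9% of all genes tested). For assembly factors the counts were 7 higher and 11 lower of 43, and for citrate cycle genes 0 and 1 of 15. Without memory-derived unstimulated array 3, 11 import genes were higher, and 3 assembly factors were higher and 11 lower.

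Members with and without the promoter letters had close median responses. Members that held the NRF1 letters had a median difference of -0.32 after stimulation of memory-derived cells (14 genes), and those with a window that lacked them -0.25 (51 genes). For the ETS letters the medians were -0.25 and -0.28, and for the YY1 letters -0.28 and -0.25. Of the 26 members that fell and had a window, 6 held the NRF1 letters, among them Sdha, Atp5g2, Atp5h and Ndufa8, and of the 36 that were not called 8 did. Of the 3 members that rose, none held the NRF1 or YY1 letters and 1 held the ETS letters.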

How the data were processed

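RNA was amplified by a one-cycle 3′ protocol and hybridised to 11 arrays, per the labels' protocols. Affymetrix Expression Console is the tool named in the notes on processing that the submitters gave. The deposited values were on a log10 scale (base inferred from the hybridization controls) and quantile normalized by the authors. They were multiplied by 3.32 to give log2 values. The members and gene lists were chosen with earlier results of these data known, and structural series were written after values had been seen.

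Of 45101 probe sets, 34945 had 1 symbol in the platform annotation, 932 had several, 9160 were not listed and 64 were controls. Probe sets with several symbols were left out, among them 9 that carry member symbols. Of the 83 members, 49 had several probe sets, 169 in all. The 4 groups were fitted together with limma 3.58.1 (lmFit, eBayes) in R 4.3.3, with no block and 7 residual degrees of freedom. Code was tested on simulated data, and figures were drawn with Python 3.11.15 and matplotlib 3.10.9. The labels call the samples biological replicates of independent experiments, and the sample descriptions give the experiment number, by which arrays are paired. The values show little of it: deviations from group means correlated at -0.0716 to 0.112 (median 0.03, 15 pairs) within an experiment and at -0.131 to 0.112 (median -0.0036, 30 pairs) between experiments. Pairs of the same origin and experiment were all positive, at 0.047 to 0.112. The consensus correlation from limma for that block, used as the random block, was 0.12.

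Members named were the 2 largest changes per complex and direction among those called, plus a list of textbook subunits. Ndufa3, Ndufa8, Ndufa9, Ndufa13, Ndufs4, Ndufv3, Atp5d, Atp5j, Atp5l and those called only among genes with a mean above 6 were named after their values had been seen. Ndufa12, Ndufb4, Cox7b2 and Cox8c were also named outside the rule and the list. Alternatives were another probe set summary, other filters, control scaling, a variance trend, blocks, experiments 1 and 2 alone, and leaving out each array.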

Additional observations from a re-analysis of the deposited data

How the results depend on the processing

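No called difference of a named member changed sign under an alternative, whereas 57 of the differences that were not called did, all of them at most 0.35 in size; the replicate block (experiment number) ended the calls given with the results and that of Sdhb after stimulation of memory-derived cells, and it added one for Uqcrb by origin (-0.53). With the block, 27 members fell after stimulation of memory-derived cells and 18 were lower by origin without it. After stimulation of memory-derived cells, members lower numbered 12 with control scaling and 12 in experiments 1 and 2, where 1 was higher; all genes called numbered 2755 there and 1289 among genes with a mean above 6. After stimulation of naive-derived cells, all genes called numbered 0 with no filter or with the replicate block, 1 with the 60th percentile filter, control scaling or experiments 1 and 2, 10 with a variance trend and 13 at a mean above 6. By origin without stimulation, 1 member was higher with control scaling, the replicate block, experiments 1 and 2 or a mean above 6, and members lower numbered 8 with control scaling, 14 in experiments 1 and 2 and 37 at a mean above 6, where 1161 genes were called in all. By origin after stimulation, 1 member was lower at a mean above 6 (Atp5e), and all genes called numbered 258 in experiments 1 and 2 and 197 at a mean above 6. For the difference in response, 2 members were higher and 1 lower with the 60th percentile filter, a variance trend or the random block, and 10 and 1 at a mean above 6. All genes called there numbered 174 with no filter, 1064 with the 60th percentile filter, 155 with control scaling, 1102 with a variance trend, 26 with the replicate block, 891 with the random block and 49 in experiments 1 and 2. The cause of these shifts was not tested, except that fewer genes or arrays enter some settings.

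Leaving out 1 array at a time gave 3437 to 4739 genes called after stimulation of memory-derived cells, with 1 to 3 members higher and 19 to 31 lower. By origin without stimulation it gave 1843 to 4161 genes, with 1 to 2 members higher and 4 to 25 lower. It gave 0 to 5 genes after stimulation of naive-derived cells and 287 to 701 by origin after stimulation. For the difference in response it gave 0 to 1505 genes, with 0 to 3 members higher and 0 to 2 lower. Control scaling moved the median of all genes by -0.10 on the log2 scale in the origin comparison after stimulation and by less in the others. Arrays number 2 or 3 a group, which limits precision, and quantile normalization hides any change in total RNA.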

Other observations

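Of the 143 genes of neighbouring mitochondrial processes tested for a difference in response between origins, 3 passed, where 2.71% of all genes tested did. Without memory-derived unstimulated array 3, 8 passed. Tomm20, an import receptor of the outer membrane, differed by -1.55 (naive-derived response minus memory-derived response, log2; SE 0.323, adjusted p = 0.0401), with responses of -0.53 in naive-derived and 1.02 in memory-derived cells. Hccs, which attaches haem to cytochrome c, differed by -1.36 (SE 0.29, adjusted p = 0.0413). It was at 7.96, 7.93 and 8.07 on the naive-derived stimulated, 8.09 and 7.55 on the naive-derived unstimulated and 8.14, 8.15 and 8.15 on the memory-derived stimulated arrays, against 6.69, 6.96 and 6.21 on the memory-derived unstimulated arrays. Surf1, the complex IV assembly factor, differed by 1.03 (SE 0.225, adjusted p = 0.0431). It was at 5.26, 4.98 and 4.89 on the naive-derived stimulated, 5.11 and 5.05 on the naive-derived unstimulated and 5.07, 5.16 and 4.99 on the memory-derived stimulated arrays, against 6.17, 5.89 and 6.36 on the memory-derived unstimulated arrays. For both genes the memory-derived unstimulated arrays lay outside the range of the other 8. Without memory-derived unstimulated array 3 these 3 genes differed by -1.37, -1.15 and 0.92, with adjusted p values of 0.0448, 0.0369 and 0.0482. After the final stimulation, the assembly factors Tmem126b and Sdhaf3 were lower in naive-derived than in memory-derived cells, at -0.81 (adjusted p = 0.0386) and -0.51 (adjusted p = 0.037). These were the only genes of the lists called in that comparison, where 3.7% of all genes tested were called. They were picked out after their values had been seen.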
